A study of Panax notoginseng with 12 samples.

Results

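The calcium signalling genes of Panax notoginseng roots are described here across 4 nitrogen supplies. They were taken as all assembled loci whose first protein database description names a calmodulin, a calcium-dependent protein kinase, a calcineurin B-like protein (CBL), a CBL-interacting protein kinase (CIPK), a calcium-binding or EF-hand protein, a calcium-transporting ATPase, a glutamate receptor, an annexin, or an IQ-DOMAIN protein. This rule reads the description and no expression value, and it gave 305 of 146330 loci. In plant cells, calcium enters the cytosol through channels, is pumped out again by ATPases, and is read by proteins with EF-hand motifs. Calmodulins, calmodulin-like proteins (CML), and CBL proteins bind calcium and pass the signal to partner proteins, among them the CIPK kinases, while calcium-dependent protein kinases (CDPK) carry the sensor and the kinase in one chain. In Arabidopsis, CIPK and CDPK kinases act on nitrate and ammonium transporters and on regulators of nitrate response genes.

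The roots came from plants in hydroponic culture supplied with 15 mM ammonium (15A), 15 mM nitrate (15N), both (15AN), or neither (CK), and 3 libraries were sequenced for each group. The study's methods describe seedlings grown for years, pretreated with complete solution and harvested on day 3, whereas the growth label speaks of seedlings of 3 days and the protocol label of no treatment. The groups follow the treatment label. Nitrate was given as the calcium salt, ammonium as the sulfate, and both together as ammonium nitrate, with a nitrification inhibitor in every solution. The study's methods also list sulfates of calcium, potassium, and magnesium among the other salts of the solutions, so no group lacked calcium or sulfate. The added calcium and nitrate therefore cannot be told apart in 15N, nor the added sulfate and ammonium in 15A. As 15AN had neither calcium nitrate nor ammonium sulfate, 15AN against 15N also differed in the calcium added with nitrate, and 15AN against 15A in the sulfate added with ammonium. In these comparisons and in the interaction, the nitrogen form and its salt cannot be told apart. The study describes 3 replicates of each treatment, with several seedlings to a pot, and libraries made from pooled RNA, but not which plants entered each pool, so the p-values measure the spread between these libraries, which may be technical. In whole roots, fewer cells of a type and less RNA per cell cannot be told apart.

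Levels are FPKM, fragments per kilobase of transcript and per fixed number of fragments, as scaled by the authors, and they can be compared between genes because they are per length. FPKM summed over all loci was 2042250 to 2593466 in 15A, 2002096 to 2174581 in 15N, 1776098 to 1800638 in 15AN, and 1420310 to 1517712 in CK. Scaling every library to the same total moved the median log2 fold change of all loci over CK to -0.50 (15A), -0.41 (15N), and -0.20 (15AN), while on the deposited scale it was 0.08, 0.08, and 0.07. Root marker genes summed to 257 to 290 FPKM across the libraries of all groups. Among the 15 root markers tested, 2, 3, and 1 were lower in 15A, 15N, and 15AN than in CK. Higher were 0, 1, and 1 (13.3%, 26.7%, and 13.3% called in either direction). The 37 green tissue markers, of which 24 to 26 were above 0 in each library, summed to 604 to 1311 FPKM in 15A, 626 to 652 in 15N, 437 to 453 in 15AN, and 780 to 838 in CK. Of the 20 green tissue markers tested, 10, 13, and 11 were lower in 15A, 15N, and 15AN than in CK, and 3, 1, and 1 were higher (65.0%, 70.0%, and 60.0% called in either direction, against 14.3%, 14.5%, and 12.2% of all loci). The highest sum belonged to 15A replicate 1, and the part of these markers in the results was not tested.

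Of the 305 calcium signalling loci, 266 were above 0 in at least 1 library and 39 were listed at 0 in all 12. In 145 of them some group averaged 5 FPKM or more, and these were tested with limma among 22592 loci. A locus with this mean in 1 group only entered the test through the group where it was high. Of the 160 others, 13 had a highest group mean between 4 and 5 FPKM, and 11 of those tested lay between 5 and 6. Calls, in either direction, need an adjusted p under 0.05 together with a difference of more than 1 in size on the log2(FPKM + 1) scale. Calls were made for 42 of the 145 (29.0%) in at least 1 treatment against CK, and for 23.2% of all loci tested.

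On the log2(FPKM + 1) scale, more calcium signalling loci were called lower than higher in each treatment. In 15A against CK, 12 were called higher (8.28%) and 18 lower (12.4%), while 7.49% of all loci tested were called higher and 6.82% lower. Calls in 15N against CK numbered 10 for higher and 14 for lower, against 6.85% and 7.64% of all loci. In 15AN against CK, 5 were higher and 17 lower, against 5.3% and 6.93%. The same CK libraries enter all 3 comparisons. Medians over the loci tested stayed near 0, at -0.02 in 15A, -0.05 in 15N, and 0.00 in 15AN. At equal library totals the higher calls numbered 3, 5, and 4 in 15A, 15N, and 15AN, and the lower calls 41, 30, and 26. With a pseudocount of 5 in place of 1, the order turned in 15A, with 7 higher and 6 lower, and the counts were 6 and 7 in 15N and 4 and 6 in 15AN. Over all loci, that pseudocount gave 1128 higher and 776 lower in 15A. With a filter of 5 FPKM over all libraries in place of any group, 15A had 9 higher and 13 lower (1470 and 980 over all loci). In 15N there were then 8 and 9 (1329 and 1119 over all loci), and in 15AN 4 and 11 (976 and 1018). Equal library totals gave 637 higher and 4447 lower over all loci in 15A, in place of 1693 and 1540. They gave 709 and 3735 in 15N, and 747 and 2364 in 15AN.

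**Figure D1:**
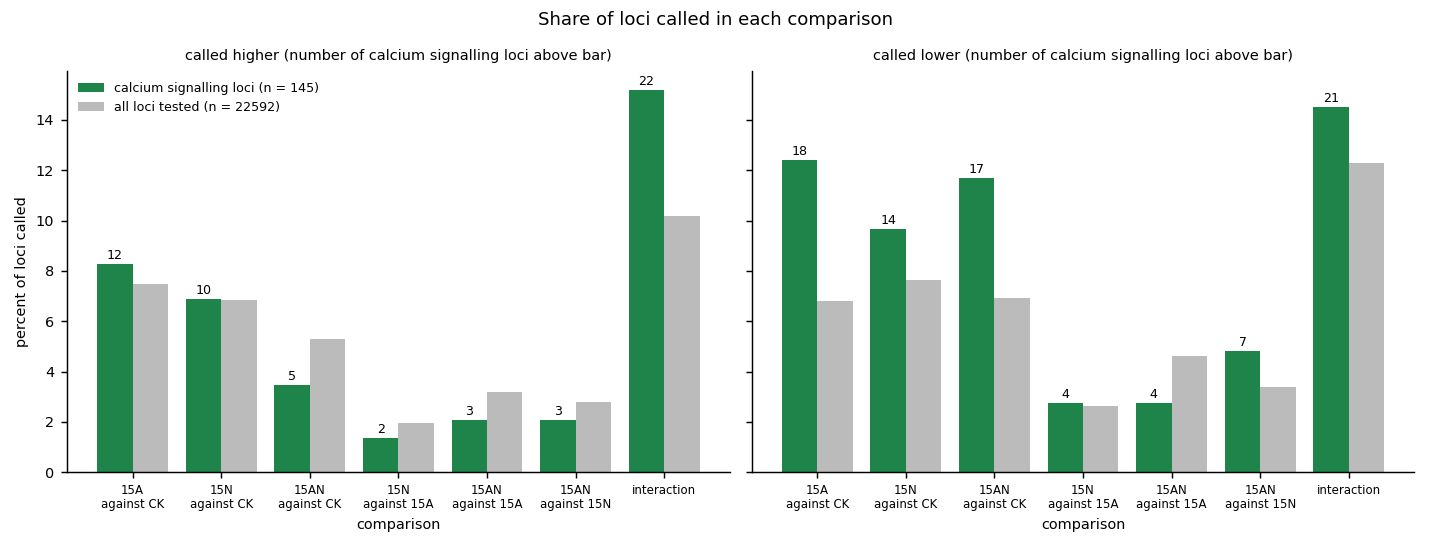
Percent of loci called higher (left panel) and lower (right panel) in each comparison, for the 145 calcium signalling loci tested (green) and for all 22592 loci tested (grey), with the number of calcium signalling loci above each green bar. The green bars for lower calls stand at 12.4% in 15A and 11.7% in 15AN, above the grey bars of 6.82% and 6.93%.

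A set of loci was lower in every treatment. Lower in 15A, 15N, and 15AN alike were 10 calcium signalling loci (6.9% of those tested), against 3.1% of all loci. They were the CIPK loci XLOC_018068, XLOC_064470, and XLOC_085291, the CML loci XLOC_030027, XLOC_006239, and XLOC_079087, the glutamate receptor XLOC_025855, the ATPase XLOC_023920, the calmodulin XLOC_113034, and XLOC_096342, described as PBP1-like. Among these 10, XLOC_018068, XLOC_085291, XLOC_079087, XLOC_025855, XLOC_023920, and XLOC_113034 averaged 5 FPKM or more in CK alone. They thus entered the test through the group where they were high. The same filter was applied to all loci, and the share in all 3 was not counted under another filter. Higher in all 3 treatments were the CBL locus XLOC_020892, the IQ-DOMAIN locus XLOC_104788, and the calmodulin XLOC_133365 (2.07%, against 2.31% of all loci). For 103 of the 145 no call was made in any treatment.

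**Figure D2:**
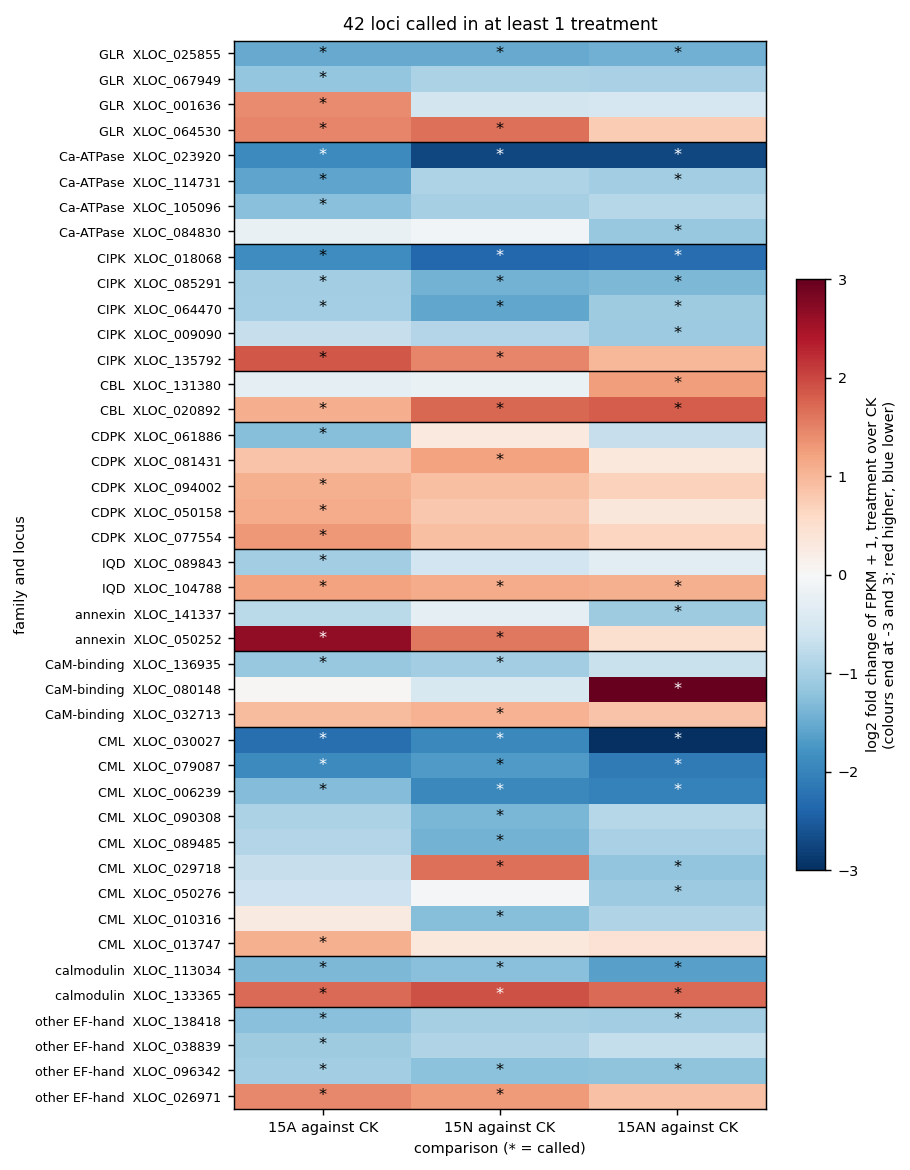
Log2 fold changes over CK on the log2(FPKM + 1) scale for the 42 loci called in at least 1 treatment, in rows grouped by family, with the comparisons 15A, 15N, and 15AN against CK in columns (red higher, blue lower, star for a call). The stars run across all 3 columns in 10 blue rows and 3 red rows, and the darkest blue is CML19 locus XLOC_030027 in 15AN, at -2.99.

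Calcium entry was represented by 22 glutamate receptor loci, channels opened by amino acids, of which 6 were tested. The locus XLOC_025855, described as glutamate receptor 3.4 (scaffold113, 279253 to 285678, plus strand), had 3.77, 3.39, and 3.56 FPKM in 15A, 3.95, 3.45, and 3.45 in 15N, and 3.72, 3.67, and 4.13 in 15AN, against 12.1, 11.8, and 12.3 in CK. All 9 treated libraries lay well under the CK libraries, and they lay close to one another. It fell by 1.51 ± 0.08 (log2, SE), 1.503 ± 0.08, and 1.43 ± 0.08 in 15A, 15N, and 15AN (adjusted p = 4.19e-07, 4.7e-07, and 1.1e-06).

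Receptors described as 3.3, which carry wound signals between leaves in Arabidopsis, behaved otherwise. XLOC_001636 had 3.89, 8.74, and 8.18 FPKM in 15A, 1.1, 0.936, and 0.824 in 15N, and 0.436, 0.987, and 1.77 in 15AN, against 2.29, 1.59, and 1.67 in CK. It was higher in 15A alone of the 3 treatments (1.42 ± 0.30, adjusted p = 0.00287), and lower in 15N than in 15A (-1.96 ± 0.30, adjusted p = 0.00146) and in 15AN than in 15A (-1.93 ± 0.30, adjusted p = 0.000847). The rise in 15A was 0.96 and no longer called with the libraries scaled to the same total. This locus entered the test through 15A alone. XLOC_064530 had 0.95, 7.3, and 9.05 FPKM in 15A, 5.06, 5.92, and 4.55 in 15N, and 2.69, 1.79, and 2.54 in 15AN, against 1.1, 0.883, and 0.928 in CK. It was called higher in 15A (1.47 ± 0.49, adjusted p = 0.0298), where replicate 1 lies within the CK range, and in 15N, where the groups do not overlap (1.64 ± 0.49, adjusted p = 0.0187). The most abundant receptor, XLOC_061568, had a mean of 25.8 FPKM over the 12 libraries, 39.0% of the family's total, and was not called in any treatment.

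A pair of loci described as glutamate receptor 3.7 shares 1 region on opposite strands (scaffold21228, 71768 to 87773). XLOC_067949 was called lower in 15A (-1.16 ± 0.11, adjusted p = 1.1e-05), with 2.58, 3.14, and 2.6 FPKM, against 7.06, 7.26, and 8.01 in CK. XLOC_067950 gave -0.96 in 15A and was not called. The sources do not give the strand setting of the counting, so reads of loci that overlap on opposite strands cannot be told apart. A region with another locus was found for 35 of the 145 loci tested, 28 of them with one on the opposite strand, and for 7 of the 42 loci called.

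Calcium export by ATPases, pumps of the plasma membrane, the endoplasmic reticulum, and other membranes, was represented by 41 loci, of which 15 were tested. Their summed level was 207 ± 3.06 FPKM in 15A, 207 ± 7.66 in 15N, 221 ± 3.71 in 15AN, and 238 ± 10.7 in CK (SD, n = 3 each). The locus XLOC_042418, a plasma membrane pump described as type 12, separated all 4 groups. It had 13.5, 13.3, and 12.8 FPKM in 15A, 5.59, 6.35, and 5.54 in 15N, and 18.4, 18.9, and 19 in 15AN, against 10.8, 10.7, and 10.4 in CK. None of its differences from CK passed the fold threshold (0.28, -0.77, and 0.76), while 15N was lower than 15A by 1.06 ± 0.06 (log2, adjusted p = 5.67e-06) and 15AN was higher than 15N by 1.53 ± 0.06 (adjusted p = 2.66e-07).

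In at least 1 treatment against CK, 4 of the 15 ATPases tested were called (26.7%, against 23.2% of all loci), each of them lower. XLOC_114731, described as type 10, had 4.01, 3.26, and 2.75 FPKM in 15A, 6.54, 5.13, and 5.66 in 15N, and 5.88, 5.27, and 4.49 in 15AN, against 12.9, 10.6, and 12.1 in CK. It was called lower in 15A (-1.58 ± 0.14, adjusted p = 7.89e-06) and 15AN (-1.05 ± 0.14, adjusted p = 0.000161), and gave -0.93 in 15N. XLOC_105096, described as type 8, was called lower in 15A (-1.26 ± 0.10, adjusted p = 3.12e-06), while 15N (-0.9984) and 15AN (-0.86) gave no call. XLOC_023920, described as type 10, was listed at 4.6, 0, and 0 FPKM in 15A and at 0 in every library of 15N and 15AN, against 12, 1.8, and 7.17 in CK. It was called lower in all 3 treatments, no fold is given against groups at 0 (its colour in the map of fold changes depends on the pseudocount), and its CK values spread widely. The most abundant pump, XLOC_012976, also described as type 10, had 34.7 to 54.8 FPKM in the libraries of 15A, 15N, and 15AN, against 38.8 to 43 in CK, and was not called.

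Calmodulins, small proteins with no activity of their own that bind calcium and then their targets, were the most abundant family. The 11 loci with such a description, 7 of them tested, summed to 1596 ± 177 FPKM in 15A, 1510 ± 24.9 in 15N, 1262 ± 57.3 in 15AN, and 1086 ± 35.1 in CK (SD, n = 3 each). As a share of all FPKM in a library the order was not kept, with means of 0.0703% (15A), 0.0715% (15N), and 0.0706% (15AN), against 0.0743% in CK. The locus XLOC_113042 (scaffold3999, 6945 to 15634, minus strand) held 59.9% of the family and 14.9% of all calcium signalling FPKM. Its level was 1101, 858, and 928 FPKM in 15A, 922, 904, and 918 in 15N, and 738, 759, and 686 in 15AN, against 640, 687, and 651 in CK, and the differences of 0.54, 0.47, and 0.14 were not called. XLOC_083859, described as calmodulin-7, had 329, 277, and 276 FPKM in 15A, against 145, 147, and 153 in CK, and came to 0.98 in 15A, just under the fold threshold.

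Both called calmodulins were of low abundance. XLOC_133365 had 8.33, 11.7, and 11.4 FPKM in 15A, 8.53, 13.6, and 15.5 in 15N, and 11.4, 8.3, and 11.6 in 15AN, against 3.39, 3.49, and 1.14 in CK. It was higher in all 3 treatments, by 1.71 ± 0.30, 1.92 ± 0.30, and 1.70 ± 0.30 (adjusted p = 0.000958, 0.000467, and 0.00121). XLOC_113034, called lower in all 3, lies in the same region as XLOC_113042 on the other strand. XLOC_113034 had 1.57, 1.86, and 1.9 FPKM in 15A, 1.63, 2.34, and 1.95 in 15N, and 1.29, 1.25, and 1.32 in 15AN, against 7.21, 5.57, and 5.65 in CK, and its value is uncertain for the reason given above.

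CML proteins, which resemble calmodulin and are specific to plants and some protists, held the most calls. Of 39 loci 19 were tested and 9 were called in at least 1 treatment (47.4%, against 23.2% of all loci). XLOC_030027, described as CML19 (scaffold12164, 35352 to 35759, plus strand), had 34, 16.8, and 18.4 FPKM in 15A, 30.9, 26.7, and 26.4 in 15N, and 11.8, 16.2, and 11.1 in 15AN, against 112, 112, and 103 in CK. All 9 treated libraries lay far under CK, and the change was -2.26 ± 0.23, -1.93 ± 0.23, and -2.99 ± 0.23 (adjusted p = 2.23e-05, 6.99e-05, and 5.45e-06). XLOC_006239, described as CML24-like, a protein that in Arabidopsis is induced by touch, had 9.64, 6.73, and 6.57 FPKM in 15A, 4.59, 4.06, and 4.8 in 15N, and 3.42, 4.28, and 4.94 in 15AN, against 20.7, 18.3, and 21.2 in CK. It fell by 1.30 ± 0.15, 1.94 ± 0.15, and 2.02 ± 0.15. XLOC_079087, described as CML45, fell by 1.91, 1.70, and 2.12 to 0.961 to 2.87 FPKM in the treated libraries, against 7.33 to 9.43 in CK.

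Not every CML locus moved the same way in the treatments. XLOC_029718, described as CML30 (scaffold12085, 24322 to 24951, minus strand), had 1.22, 0.892, and 0.871 FPKM in 15A, 7.71, 9.35, and 10.6 in 15N, and 0.109, 0.789, and 0.443 in 15AN, against 2.21, 2.47, and 1.95 in CK. It was higher in 15N (1.66 ± 0.20, adjusted p = 7.45e-05) and lower in 15AN (-1.17 ± 0.20, adjusted p = 0.000885), and no library of 15N overlapped any other group. XLOC_029718 entered the test through 15N alone. Its lower call in 15AN compares 0.109 to 0.789 FPKM with 1.95 to 2.47 in CK, both under the level of the filter. That call was lost in 3 of 21 alternatives, so the fall in 15AN is less certain than the rise in 15N. No other of the 145 loci was called higher in 1 treatment and lower in another. XLOC_010316, a further locus described as CML19, had 2.19, 3.2, and 2.88 FPKM in 15N, 3.43, 4.4, and 3.72 in 15AN, and 11.9, 7.45, and 10.7 in 15A, against 7.49, 8.64, and 8.07 in CK. It was lower in 15N than in CK (-1.28 ± 0.17, adjusted p = 0.000125), lower in 15N than in 15A (-1.54 ± 0.17, adjusted p = 0.000167), and lower in 15AN than in 15A (-1.17 ± 0.17, adjusted p = 0.000473).

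The most abundant CML locus was XLOC_105887, described as CML37, with 50.6% of the family's level. It had 320, 388, and 374 FPKM in 15A, 436, 462, and 503 in 15N, and 380, 333, and 335 in 15AN, against 268, 275, and 265 in CK. On the deposited scale all treated libraries were above CK, and the differences of 0.42, 0.79, and 0.37 were not called. The library totals were higher in the treatments too, and no difference at equal totals is given for this locus. A further locus described as CML37, XLOC_089485, was called lower in 15N (-1.42 ± 0.17, adjusted p = 6.48e-05), at 12.8, 10.6, and 10.2 FPKM, against 25.2, 38.4, and 32.5 in CK. Both lie in regions under 300 bp, as do 7 of the 145 loci tested, and FPKM of such short loci are less certain. XLOC_050276 (CML23) was lower in 15AN (-1.08 ± 0.15), XLOC_090308 (calmodulin-like protein 3) was lower in 15N (-1.37 ± 0.12), and XLOC_013747 (CML36), in a region of 173 bp, was higher in 15A (1.06 ± 0.30).

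CBL proteins, the sensors that bind CIPK kinases and bring them to membranes, had 9 loci, of which 7 were tested. XLOC_020892, described as CBL7 (scaffold10232, 61620 to 65724, plus strand), had 5.35, 5.53, and 5.92 FPKM in 15A, 8.71, 8.79, and 10.5 in 15N, and 10.5, 9.69, and 9.54 in 15AN, against 1.55, 2.18, and 2.73 in CK. No treated library overlapped CK, and the rises were 1.08 ± 0.13, 1.72 ± 0.13, and 1.81 ± 0.13 (adjusted p = 8.89e-05, 3.77e-06, and 4.51e-06). The call in 15A was lost with libraries scaled to the same total (0.61) and without CK replicate 1 (0.94).

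XLOC_131380, also described as CBL7, was higher where both nitrogen forms were given, and it entered the test through that group alone. It had 5.23, 6.34, and 4.25 FPKM in 15AN, 1.4, 1.14, and 0.853 in 15A, and 1.3, 1.01, and 1.56 in 15N, against 1.26, 1.63, and 1.98 in CK. The lowest 15AN library was above every library of the other groups, and 15AN was higher than CK by 1.25 ± 0.19 (adjusted p = 0.000443), than 15A by 1.55 ± 0.19 (adjusted p = 0.000185), and than 15N by 1.45 ± 0.19 (adjusted p = 0.000395). The region holds 2 other loci, 1 of them on the opposite strand. The most abundant CBL locus, XLOC_145336, described as CBL01, had 38.1, 36.3, and 34.2 FPKM in 15A, 35.8, 38.7, and 42.8 in 15N, and 27.1, 27.2, and 27.2 in 15AN, against 42.8, 38.1, and 43.8 in CK, and was not called.

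**Figure D3:**
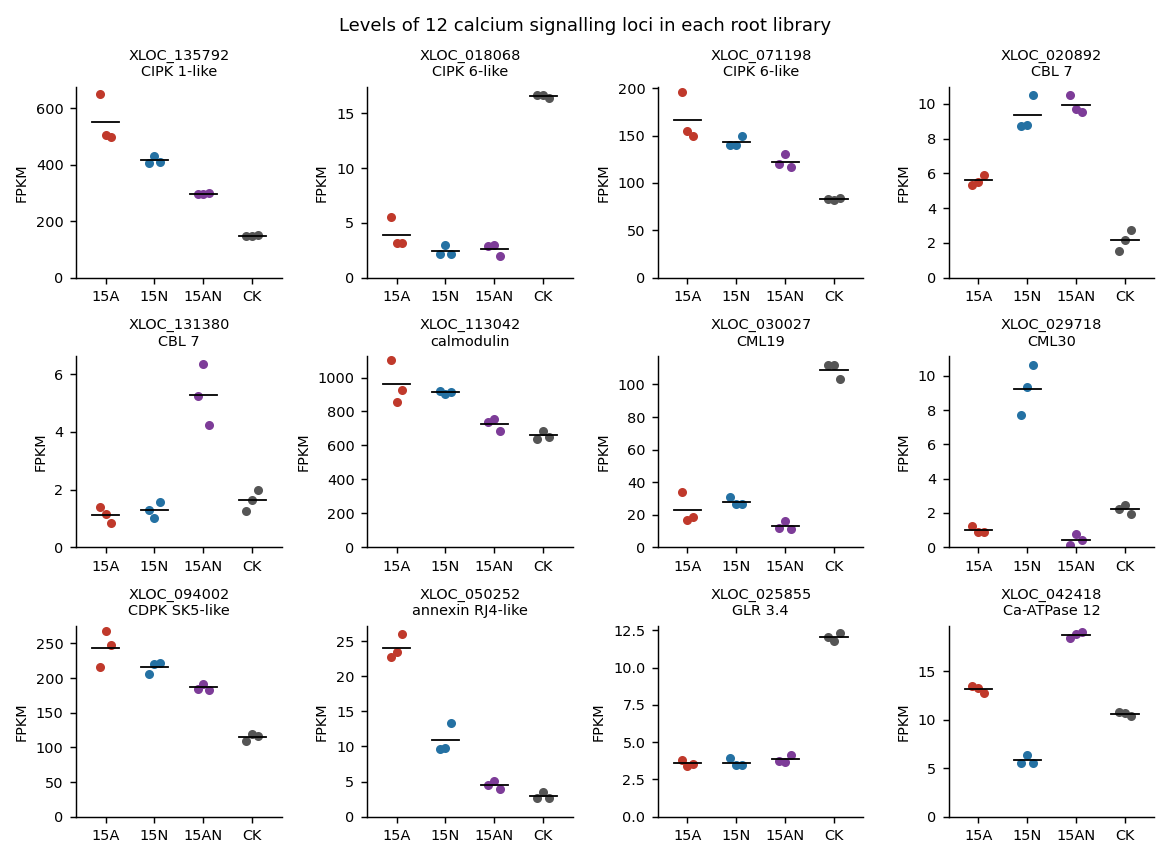
FPKM of 12 calcium signalling loci, 1 panel each, in the 3 libraries of 15A, 15N, 15AN, and CK, with each point a library and each bar the group mean. CIPK 6-like locus XLOC_018068 and CML19 locus XLOC_030027 are highest in CK, CIPK 1-like locus XLOC_135792 is highest in 15A, CML30 locus XLOC_029718 stands out in 15N at 7.71 to 10.6 FPKM, and CBL7 locus XLOC_131380 stands out in 15AN at 4.25 to 6.34 FPKM.

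The CIPK kinases had 33 loci, of which 20 were tested, and 5 of these were called in at least 1 treatment (25.0%, close to the 23.2% of all loci). XLOC_135792, described as CIPK1-like (scaffold7992, 339323 to 348349, minus strand), had 651, 506, and 499 FPKM in 15A, 405, 433, and 408 in 15N, and 298, 296, and 300 in 15AN, against 148, 148, and 152 in CK. The 4 groups did not overlap at any point in this order, with the mean 3.69 times that of CK in 15A. The changes were 1.87 ± 0.09 in 15A (adjusted p = 2.05e-07) and 1.47 ± 0.09 in 15N (adjusted p = 9.98e-07), and 0.99 in 15AN was just under the fold threshold. Scaled to the same total, 15A kept its call at 1.24 and 15N lost it at 0.94.

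Most of the difference in the summed level of the family lay in this locus. The CIPK loci summed to 1216 ± 145 FPKM in 15A, 1084 ± 17.3 in 15N, 930 ± 17.4 in 15AN, and 798 ± 10.2 in CK (SD, n = 3 each). Without XLOC_135792 the sums were 664 ± 59.8, 669 ± 17.4, and 632 ± 18.7 in 15A, 15N, and 15AN, against 649 ± 10.2 in CK. Its share of the family averaged 45.3% (15A), 38.3% (15N), and 32.02% (15AN), against 18.7% in CK. As a share of all FPKM in a library, the family averaged 0.0535% (15A), 0.0513% (15N), and 0.0520% (15AN), against 0.0546% in CK.

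On the deposited scale, loci with the same CIPK number in their descriptions differed from CK in opposite directions, though of the CIPK6-like pair only the lower one was called. The other CIPK1-like locus, XLOC_085291, was lower in all 3 treatments, with 4.03, 3.36, and 3.56 FPKM in 15A, 2.18, 3.02, and 2.55 in 15N, and 2.8, 3.48, and 2.11 in 15AN, against 8.02, 9.65, and 8.13 in CK (changes of -1.04 ± 0.15, -1.42 ± 0.15, and -1.35 ± 0.15). Among the CIPK6-like loci, XLOC_018068 (C4968533, 4548 to 5813, minus strand) had 5.5, 3.17, and 3.14 FPKM in 15A, 2.13, 2.96, and 2.18 in 15N, and 2.93, 2.94, and 2 in 15AN, against 16.6, 16.7, and 16.4 in CK. The changes of -1.86 ± 0.19, -2.37 ± 0.19, and -2.29 ± 0.19 (adjusted p = 2.19e-05, 4.45e-06, and 8.18e-06) were called under every alternative that was run. XLOC_071198, the other CIPK6-like locus tested, had 196, 155, and 150 FPKM in 15A, 140, 140, and 150 in 15N, and 120, 131, and 116 in 15AN, against 83.2, 82.4, and 83.6 in CK. On the deposited scale all its treated libraries lay above CK, and the differences of 0.99, 0.78, and 0.55 were not called. As the library totals were higher in the treatments too, and no difference at equal totals is given for XLOC_071198, its direction is uncertain.

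Among the further CIPK loci, both that were called, XLOC_064470 and XLOC_009090, were lower. XLOC_064470, a CIPK7-like locus, was lower in all 3 treatments (-1.01 ± 0.29, -1.56 ± 0.29, and -1.08 ± 0.29), with 3.49 to 10.3 FPKM in the treated libraries, against 14.2 to 17.1 in CK. Its region holds 5 other loci, and the 15A call was lost without 15A replicate 2 (-0.83) or without CK replicate 1 (-0.97) or 3 (-0.98), and the 15AN call without 15AN replicate 3 (-0.78). XLOC_009090, described as CIPK12, was lower in 15AN (-1.09 ± 0.10, adjusted p = 1.51e-05) at 5.07, 4.26, and 4.3 FPKM, against 10.5, 11.1, and 10.6 in CK. XLOC_138702, described as CIPK8, a kinase of the nitrate response in Arabidopsis, had 5.48, 5.81, and 5.87 FPKM in 15A, 6.66, 6.47, and 6.12 in 15N, and 7.73, 7.77, and 7.69 in 15AN, against 8.79, 8.47, and 8.61 in CK, with no call. XLOC_069823, described as CIPK09, had 73, 74.8, and 78.4 FPKM in 15N, against 40.6, 40.4, and 42.3 in CK. Its 15N libraries all lay above CK on the deposited scale, and the difference of 0.86 (adjusted p = 6e-07) was under the fold threshold. The second most abundant CIPK locus, XLOC_145417 (CIPK5-like), had 162, 118, and 110 FPKM in 15A, against 199, 210, and 198 in CK, and was not called at -0.65.

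**Figure D4:**
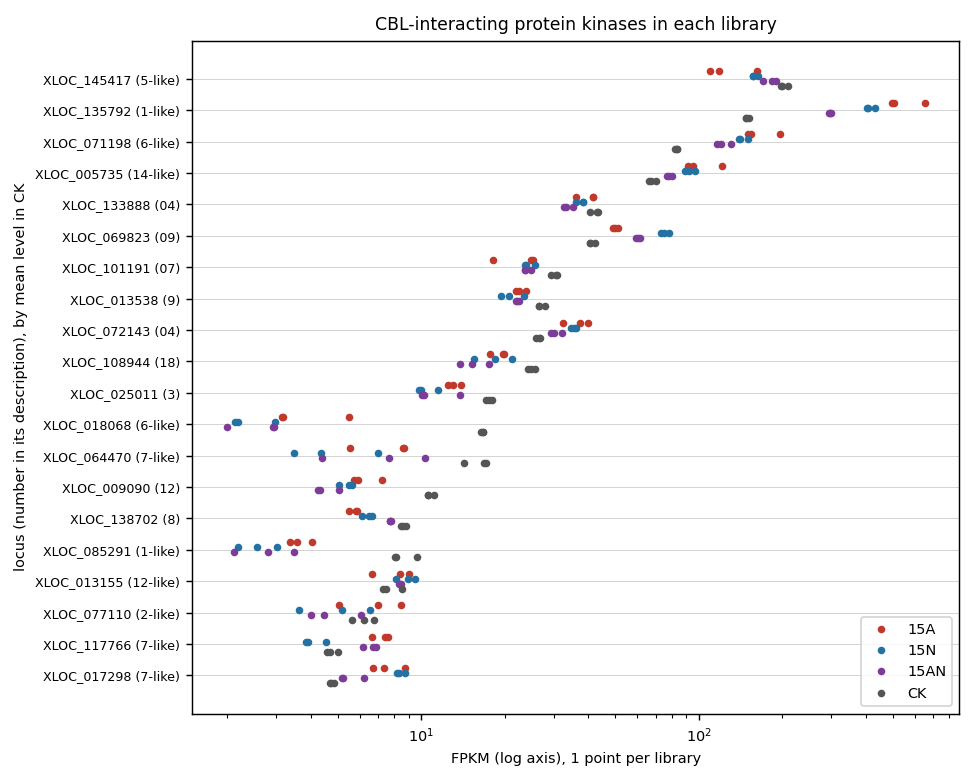
FPKM on a log axis of the 20 CIPK loci tested, ordered by their mean in CK and labelled with the number in their description, with 1 point per library and colours for 15A, 15N, 15AN, and CK. The treated points of XLOC_135792 lie to the right of CK, at 296 to 651 FPKM against 148 to 152, and those of XLOC_018068 lie to the left, at 2 to 5.5 FPKM against 16.4 to 16.7.

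The CDPK kinases had 39 loci, of which 24 were tested, and 5 were called in at least 1 treatment (20.8%, against 23.2% of all loci). In 15A 3 were higher and 1 lower (12.5% and 4.17%, against 7.49% and 6.82% of all loci), and in 15N 1 was higher. XLOC_094002, described as SK5-like and the most abundant with 26.0% of the family's level, had 216, 267, and 248 FPKM in 15A, 207, 220, and 222 in 15N, and 184, 192, and 183 in 15AN, against 110, 120, and 116 in CK. Every treated library was above CK, and the change was called in 15A (1.07 ± 0.08, adjusted p = 2.72e-06), while 15N and 15AN gave 0.91 and 0.69. Scaled to the same total the 15A difference was 0.44, and with quantile normalization 0.67, and neither was called. XLOC_081431, described as CDPK2, was higher in 15N (1.21 ± 0.13, adjusted p = 4.11e-05), with 30, 30.6, and 29.1 FPKM, against 12.1, 12.9, and 12.1 in CK, and was not called with equal totals (0.70).

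In Arabidopsis, CDPK numbers 10 and 32 belong to the kinases that phosphorylate NIN-like proteins after nitrate supply. Of the 7 tested loci with these numbers in their descriptions, XLOC_050158 (32-like) had 24.5, 19.9, and 18.2 FPKM in 15A, 17, 15.4, and 17.6 in 15N, and 9.28, 12.6, and 13.5 in 15AN, against 7.74, 9.7, and 9.75 in CK, and was called higher in 15A (1.12 ± 0.15, adjusted p = 0.000153), a call that was lost at equal totals (0.53). XLOC_077554 (32-like) was called higher in 15A too (1.31 ± 0.49, adjusted p = 0.045), but its libraries overlapped, with 37.5, 16, and 40.6 FPKM, against 6.94, 16.7, and 11.7 in CK. The other 5 were not called in any treatment, among them XLOC_097225 (number 32) with 37, 35.3, and 36.8 FPKM in 15A and 38.3, 39.3, and 47.2 in 15N, against 31.9, 32.8, and 31.7 in CK, and XLOC_104186 (10-like) with 11.9, 16.1, and 18.3 FPKM in 15A and 17.4, 17.3, and 17.3 in 15N, against 26.9, 23.2, and 27.8 in CK. No CDPK locus was called in 15AN against CK by limma. An unadjusted limma p under 0.05 was reached there by 11 of the 24. That share was not counted over all loci, so it cannot be read as a trait of the family. XLOC_061886, a putative CDPK, was lower in 15A (-1.28 ± 0.35, adjusted p = 0.011), with 24.6, 7.27, and 17.8 FPKM, against 41.2, 33.1, and 38.1 in CK, and the call was lost without 15A replicate 2 (-0.81).

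Annexins, which bind membrane lipids when calcium is present, had 14 loci, of which 5 were tested. XLOC_050252, described as annexin-like protein RJ4 (scaffold16741, 286172 to 291621, plus strand), had 22.7, 23.5, and 26 FPKM in 15A, 9.69, 9.84, and 13.3 in 15N, and 4.53, 5.15, and 3.89 in 15AN, against 2.63, 3.56, and 2.66 in CK. The 4 groups did not overlap. The change was 2.67 ± 0.14 in 15A (adjusted p = 3.02e-07), the highest of any calcium signalling locus in that comparison, 1.59 ± 0.14 in 15N (adjusted p = 9.84e-06), and 0.49 in 15AN. The level in 15AN was lower than in 15A by 2.19 ± 0.14 on the log2 scale (adjusted p = 3.74e-06) and lower than in 15N by 1.11 ± 0.14 (adjusted p = 0.000345).

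Annexin D1, XLOC_082303, held 86.0% of the family's level. It had 311, 246, and 244 FPKM in 15A, 205, 208, and 216 in 15N, and 264, 273, and 259 in 15AN, against 161, 155, and 161 in CK. On the deposited scale all treated libraries were above CK, with differences of 0.73, 0.40, and 0.73 that were not called. The library totals were higher in the treatments too, and no difference at equal totals is given for this locus. XLOC_141337, described as annexin D5-like, was lower in 15AN (-1.07 ± 0.15, adjusted p = 0.000212), with 1.86, 2.21, and 1.61 FPKM, against 5.04, 5.27, and 4.93 in CK.

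Proteins that bind calmodulin had 41 loci, of which 20 were tested, and 3 were called in at least 1 treatment (15.0%, against 23.2% of all loci). XLOC_080148, described as a calmodulin-binding related protein, had 17.4, 21.5, and 20.3 FPKM in 15AN, 0, 1.94, and 0.948 in 15A, and 0, 0, and 0.963 in 15N, against 0, 2.17, and 0.709 in CK. The 3 libraries of 15AN stood apart from the 9 others, and the difference from CK was 3.56 ± 0.48 on the log2(FPKM + 1) scale (adjusted p = 0.000221). The locus entered the test through 15AN alone. The region spans 246 bp (scaffold24689, 72480 to 72725), has no strand, and overlaps no annotated gene model. Among the calmodulin-binding transcription activators (CAMTA), of which 10 loci were tested, XLOC_136935 (number 6) was lower in 15A (-1.15 ± 0.06, adjusted p = 4.38e-07) and 15N (-1.05 ± 0.06, adjusted p = 7.57e-07), with 8.15, 7.79, and 8.12 FPKM in 15A, 8.07, 9.31, and 8.53 in 15N, and 11.6, 11.1, and 11.7 in 15AN, against 18.9, 18.6, and 19.4 in CK. The other 9 were not called against CK. XLOC_032713, a kinesin-like motor that binds calmodulin, had 107, 107, and 118 FPKM in 15N, against 52.3, 53.4, and 53.9 in CK (1.04 ± 0.07, adjusted p = 2.08e-06), while 15A and 15AN gave 0.95 and 0.86 and 15N gave 0.52 at equal totals.

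IQ-DOMAIN proteins, plant scaffolds that bind calmodulin and microtubules, had 37 loci, of which 10 were tested. XLOC_104788, described as IQ-DOMAIN 1, had 156, 118, and 105 FPKM in 15A, 112, 125, and 118 in 15N, and 130, 120, and 93.2 in 15AN, against 71.5, 37.8, and 57.7 in CK. It was called higher in all 3 treatments (1.20 ± 0.23, 1.12 ± 0.23, and 1.06 ± 0.23). The region is 180 bp long and lies 79 bp from XLOC_104787, another IQ-DOMAIN 1 locus that was not called, and the 3 calls were lost without CK replicate 2 (0.95, 0.87, and 0.81) and at equal totals (0.57, 0.59, and 0.77). XLOC_089843, described as IQ-domain 24, was lower in 15A (-1.05 ± 0.10, adjusted p = 1.76e-05), with 11.4, 9.35, and 8.69 FPKM, against 19.5, 23.6, and 20.6 in CK.

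Among the 12 tested loci with other EF-hand or calcium-binding descriptions, XLOC_096342 was named for PBP1, a protein that in Arabidopsis binds the kinase PINOID, a regulator of auxin transport. It had 72.7, 52, and 70.3 FPKM in 15A, 54.1, 51.6, and 64.7 in 15N, and 58.1, 55.1, and 58.1 in 15AN, against 137, 134, and 128 in CK. It fell by 1.04 ± 0.12, 1.22 ± 0.12, and 1.21 ± 0.12 (adjusted p = 6.81e-05, 2.37e-05, and 3.48e-05). XLOC_026971, which resembles the olive pollen allergen Ole e 8, had 30.5, 31.5, and 27 FPKM in 15A, 25.7, 25.6, and 27.6 in 15N, and 19.8, 19.5, and 20.6 in 15AN, against 9.01, 11.4, and 10.7 in CK. Its rise was called in 15A (1.43 ± 0.09) and 15N (1.27 ± 0.09), and at equal totals it was 0.84 and 0.77, not called. XLOC_138418, an EF-hand family protein, was lower in 15A (-1.25 ± 0.09) and 15AN (-1.04 ± 0.09), and XLOC_038839, described as KIC-like, a protein that in Arabidopsis binds a kinesin-like calmodulin-binding protein, was lower in 15A (-1.07 ± 0.14).

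**Figure D5:**
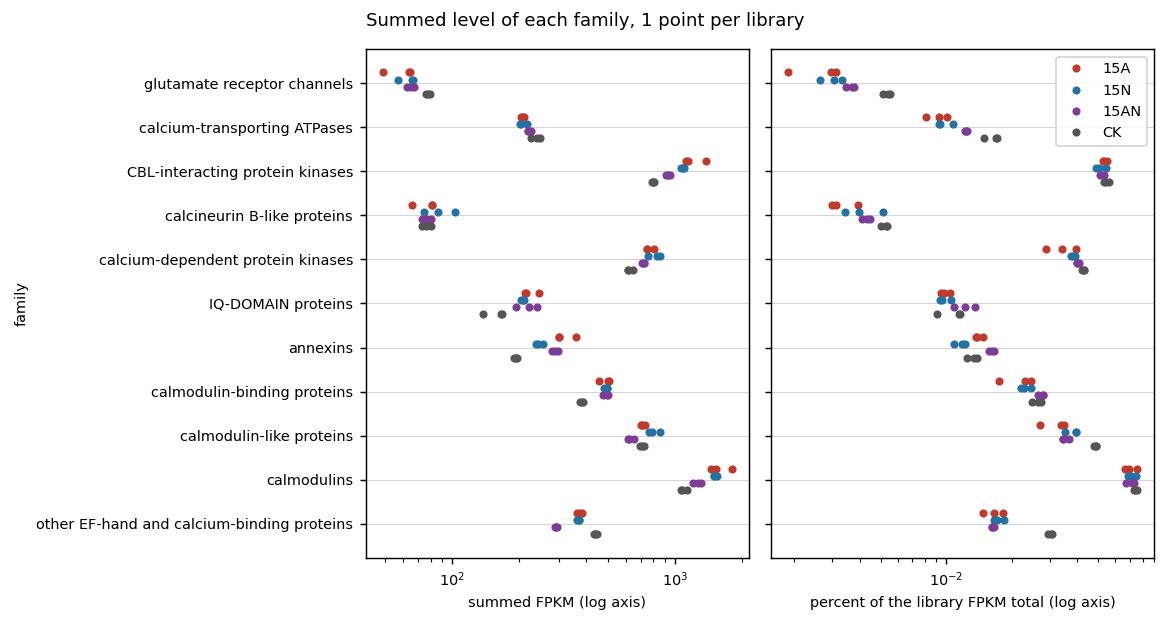
Summed level of each of the 11 families in each library, as FPKM (left panel) and as a percent of all FPKM of the library (right panel), both on log axes, with colours for 15A, 15N, 15AN, and CK. The CIPK sums are 1216, 1084, and 930 FPKM on average in 15A, 15N, and 15AN, against 798 in CK, while in percent the single libraries of all 4 groups lie between 0.0490% and 0.0563%.

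Differences between the nitrogen forms were fewer. In 15N against 15A, 2 calcium signalling loci were called higher and 4 lower, against 1.96% and 2.63% of all loci. Higher were CML30 locus XLOC_029718 (2.35 ± 0.20, adjusted p = 4e-05) and the putative CDPK XLOC_061886 (1.58 ± 0.35, adjusted p = 0.00949), which had 62.1, 38.3, and 41.7 FPKM in 15N, against 24.6, 7.27, and 17.8 in 15A. Lower were the receptor XLOC_001636, the CML19 locus XLOC_010316, the pump XLOC_042418, and the annexin XLOC_050252. At equal totals the pump (-0.95) and the annexin (-0.98) lost the call, leaving 2 lower, and with a pseudocount of 5 there were 0 lower. Without 15N replicate 1 the higher calls numbered 4.

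From 15A to 15AN, nitrate was added and ammonium sulfate gave way to ammonium nitrate. In 15AN against 15A, 3 loci were higher and 4 lower, against 3.18% and 4.64% of all loci (7.83% in either direction). The higher ones were XLOC_080148 (3.53 ± 0.48), the CBL7 locus XLOC_131380, and the CAMTA locus XLOC_018119 (1.04 ± 0.19, adjusted p = 0.00228), with 13.9, 12.5, and 17.3 FPKM in 15AN, against 7.26, 6.4, and 5.89 in 15A. The lower ones were XLOC_001636, XLOC_010316, the annexin XLOC_050252, and the Ole e 8-like locus XLOC_120346 (-1.02 ± 0.08, adjusted p = 1.1e-05), which had 46.6, 50.4, and 41.5 FPKM in 15AN, against 95.7, 90.8, and 96.5 in 15A. At equal totals XLOC_010316 (-0.87) and XLOC_120346 (-0.68) lost the call, and 8 loci were called higher and 2 lower. Over all loci 1443 were then higher and 596 lower, in place of 719 and 1049. Without 15A replicate 1 the higher calls numbered 5.

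From 15N to 15AN, ammonium was added and calcium nitrate gave way to ammonium nitrate. In 15AN against 15N, 3 were higher and 7 lower, against 2.8% and 3.39% of all loci (6.19% in either direction). The higher ones were XLOC_080148 (4.04 ± 0.48), the pump XLOC_042418, and XLOC_131380. Lower were XLOC_029718 (-2.84 ± 0.20, adjusted p = 7.28e-06), XLOC_120346 (-1.16 ± 0.08), the annexin XLOC_050252, XLOC_030027 (-1.06 ± 0.23), XLOC_050276 (-1.03 ± 0.15), XLOC_084830, a pump described as type 13 (-1.04 ± 0.32), and XLOC_142052, described as CML45-like (-1.01 ± 0.25). Every calcium signalling locus called in these 3 comparisons had groups that did not overlap. A call itself favours groups that lie apart, and the share over all loci called was not counted, so nothing is read from this. At equal totals 5 calcium signalling loci were called, and 4 of them were among these 10, while 6.86% of all loci were called. The lower calls numbered 3 without 15N replicate 3 and 4 without 15AN replicate 3, in place of 7.

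The difference between roots with and without ammonium was taken with nitrate (15AN against 15N) and set against the one without nitrate (15A against CK). The salts differed in both pairs, as given above. The interaction was called for 43 of the 145 loci, 22 positive and 21 negative, against 10.2% and 12.3% of all loci. In 14 of the 43 neither ammonium difference was itself called. The lowest value was that of the annexin XLOC_050252 (-3.78 ± 0.20, adjusted p = 3.49e-07), where the ammonium difference was 2.67 without nitrate and -1.11 with it. For the CIPK1-like locus XLOC_135792 (-2.35 ± 0.13, adjusted p = 4.78e-07), the ammonium difference was 1.87 without nitrate and -0.48 with it. The highest was that of XLOC_080148 (4.02 ± 0.69, adjusted p = 0.000815), raised in 15AN. At equal totals 57 were positive and 5 negative, while over all 22592 loci tested 7451 were positive and 986 negative.

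Other genes of the pathway were listed by description, in lists too short to read against the 14.3%, 14.5%, and 12.2% of all loci called in 15A, 15N, and 15AN. No locus was called in 15A, 15N, or 15AN against CK among 6 tested cyclic nucleotide-gated channels, 4 cation and calcium exchangers, 6 calreticulins and calnexins, which hold calcium in the endoplasmic reticulum, 2 respiratory burst oxidases, and 2 phospholipases C. Of 7 other calcium-permeable channels, 2 were lower in 15A, 2 in 15N, and 1 in 15AN. Of 5 tested channels and transporters known as targets of these kinases, 1 was higher in each treatment, and 1 was lower in 15N and in 15AN. Of 5 tested NIN-like proteins, regulators of nitrate response genes, 1 was lower in each treatment and none higher.

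By position, the 305 loci lay on 286 scaffolds, and 36 of them shared a scaffold with another. There were 19 neighbouring pairs, of which 17 were of 1 family. An annotated gene model overlapped 294 of the 305 and 136 of the 145 tested.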

How the data were processed

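Libraries of root RNA, depleted of ribosomal RNA, were aligned with TopHat2 2.0.13 and assembled with Cufflinks 2.2.1, and the authors deposited FPKM from Cuffnorm 2.2.1 for each locus and library (versions per the submitters' processing notes). The scaling of the deposited FPKM was kept. The files hold no read counts, so the read depth is not known and no counting interval is given. As the values are not counts, the edgeR test named in the study's methods was not repeated.

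Loci that averaged 5 FPKM or more in any group were tested on log2(FPKM + 1), a scale that understates the change of low loci, with limma 3.58.1 (R 4.3.3, eBayes with trend) in 1 model of the 4 groups and 12 libraries. P-values were two-sided and Benjamini-Hochberg adjusted over all loci tested. The procedure was tested on simulated data with known changes. Figures were drawn with matplotlib 3.10.9 (Python 3.11.15).

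The calcium signalling loci, families, and other lists were chosen with earlier results of these data known. The pattern for NIN-like proteins was corrected after it was seen to take in other descriptions. Loci named in the text were, in each comparison, up to 8 called loci in each direction with the largest change, a mean of at least 10 FPKM in a group, and no overlap (for the interaction, no overlap rule), and in each family the 2 most abundant and up to 3 called loci by the F statistic. Outside this rule, XLOC_013747, XLOC_023920, XLOC_038839, XLOC_064530, XLOC_069823, XLOC_071198, XLOC_077554, XLOC_079087, XLOC_085291, XLOC_090308, XLOC_097225, XLOC_104186, XLOC_104787, and XLOC_138702 were named after their values were seen. Alternatives were other pseudocounts, filters, scalings, and fits, the replicate block, and leaving out each library.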

Additional observations from a re-analysis of the deposited data

Results flagged for a closer look

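The ammonium difference was not the same without nitrate (15A against CK) and with nitrate (15AN against 15N) for the 31 named loci below. The call was by the interaction term of the limma model (adjusted p under 0.05 and a size over 1 on the log2 scale). The salts differed in both pairs, so ammonium and the salt cannot be told apart here. Each value is the ammonium difference with nitrate minus the one without. With every library scaled to the same total, 11 of these 31 lost the call. No group of 3 libraries was large enough to test a single library for standing apart.

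Among the glutamate receptor channels, the value was -1.39 for XLOC_001636, 1.58 for XLOC_025855, and 1.14 for XLOC_067949. For the calcium-transporting ATPases, the value was 1.25 for XLOC_042418, 1.3977 for XLOC_105096, and 1.45 for XLOC_114731. In the calmodulins, the value was -1.32 for XLOC_083859 and -1.93 for XLOC_133365. Among the CML proteins, the value was 1.22 for XLOC_006239, -2.15 for XLOC_029718, 1.20 for XLOC_030027, 1.33 for XLOC_089485, and -1.06 for XLOC_093695. For the CBL proteins, the value was 1.75 for XLOC_131380. In the CIPK kinases, the value was 1.94 for XLOC_018068, 1.49 for XLOC_064470, and -2.35 for XLOC_135792.

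Among the CDPK kinases, the value was -1.59 for XLOC_050158, -1.76 for XLOC_081431, and -1.28 for XLOC_094002. For the annexins, the value was -3.78 for XLOC_050252. In the calmodulin-binding proteins, the value was -1.13 for XLOC_032713, 4.02 for XLOC_080148, -1.22 for XLOC_113017, and 1.52 for XLOC_136935. Among the IQ-DOMAIN proteins, the value was 1.28 for XLOC_089843 and -1.26 for XLOC_104788. For the other EF-hand and calcium-binding proteins, the value was -1.81 for XLOC_026971, 1.05 for XLOC_096342, -1.43 for XLOC_120346, and 1.21 for XLOC_138418.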

How the results depend on the processing

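No call of a named locus changed direction under any alternative. Of 115 such calls, 53 were lost with a pseudocount of 5, 33 with every library scaled to the same total, 16 with quantile normalization, and 1 to 8 when a library was left out, while 0 were lost with median-of-ratios scaling, a pseudocount of 0.1, or no trend. With a pseudocount of 5, 7 calcium signalling loci were higher and 6 lower in 15A against CK, 6 and 7 in 15N against CK, and 6 lower in 15AN against CK, with 0 lower in 15N against 15A, 1 higher and 1 lower in 15AN against 15A, 4 called in 15AN against 15N, and 25 in the interaction. At equal library totals, 3 were higher and 41 lower in 15A against CK, 5 and 30 in 15N against CK, and 26 lower in 15AN against CK, with 2 lower in 15N against 15A, 8 higher and 2 lower in 15AN against 15A, and 5 called in 15AN against 15N. A filter of 10 FPKM in a group tested fewer loci and left 9 lower in 15N against CK, 3 higher and 11 lower in 15AN against CK, and 1 higher in 15N against 15A. A filter of 5 FPKM over all libraries left 9 lower in 15N against CK, 11 lower in 15AN against CK, and 1 higher in 15N against 15A. Loci of at least 300 nt gave 3 higher in 15AN against CK, a fit of only the groups compared gave 1 higher in 15N against 15A, and no filter gave 8 lower in 15AN against 15A. The cause of the other shifts was not tested.

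Leaving out each library in turn gave 9 to 13 higher and 13 to 20 lower in 15A against CK, 9 to 11 and 14 to 17 in 15N against CK, and 4 to 6 and 15 to 19 in 15AN against CK. Between treatments it gave 2 to 4 higher and 4 to 5 lower in 15N against 15A, 2 to 5 and 3 to 6 in 15AN against 15A, 6 to 11 called in 15AN against 15N, and 40 to 46 in the interaction. The counts that moved by over 1.5 times were 4 higher in 15N against 15A without 15N replicate 1, 5 higher in 15AN against 15A without 15A replicate 1, and, in 15AN against 15N, 3 lower without 15N replicate 3 (6 called in either direction) and 4 lower without 15AN replicate 3, in place of 7. Libraries with the same number did not deviate together (r of -0.0998 to 0.0505, across loci, which are not independent). For different numbers r was -0.0656 to 0.0939. The samples were therefore not paired by number, though this cannot exclude that libraries of the same number share a source. With the replicate number as a block, 11 loci were higher and 18 lower in 15A against CK, 44 were called in the interaction, and the other counts did not move.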
